A study of Drosophila melanogaster with 3 samples.

Results

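The genes described here are 40 homeobox genes of Drosophila melanogaster, a named list of pair-rule, head, neuronal, limb, muscle, sensory organ, eye and Iroquois genes. They were chosen by gene name, and all 40 were found in the annotation among 13968 protein-coding genes. The list was drawn up as homeobox genes outside the Hox clusters, but the coordinates do not bear this out for ftz, zen and zen2. These 3 lie inside the Antennapedia complex, between lab and Antp on 3R, and none of the 40 lies in the bithorax complex.

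Peaks came from chromatin immunoprecipitation and sequencing (ChIP-seq) of 1 group of 3 biological replicates. Each replicate was whole embryos of both sexes, aged 0 to 16 hours, from a transgenic line that stably expresses ind with GFP at its C terminus, and an antibody against GFP was used. Chromatin of all embryonic cell types were pooled, so binding in few cells and weak binding in many cannot be told apart. There is no second condition, so every value below describes 1 group, and how much tagged protein was made, beside normal ind, is not stated in the labels.

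The product of ind (intermediate neuroblasts defective) is a homeodomain protein that patterns the intermediate column of neural precursors in the embryo. A homeodomain is a DNA-binding fold that most often contacts a short sequence with a TAAT core (ATTA on the other strand), so many homeodomain proteins can bind alike sites. Homeobox genes are classic targets of one another: in the nerve cord, neighbouring column and neuron identity genes repress each other, and segmentation genes act in a hierarchy of such proteins. The question was whether the peaks of this homeodomain protein lie at other homeobox genes.

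Few of these genes held a peak of the authors' list filtered for reproducible rank. That list, called optimal below, kept 5809 peaks. Of the 40 homeobox genes, 7 (17.5%) had an optimal summit in the gene body or up to 2000 bp upstream, against 34.2% of all protein-coding genes (4782 genes). The 7 were otp, ct, so, btn, lbl, inv and eyg, which together held 10 peaks, or 0.172% of the optimal list. In the authors' relaxed list from the pooled replicates, which also takes weak peaks and background (24244 peaks), 24 of the 40 (60%) had a summit, against 61% of protein-coding genes. Thus the homeobox genes were below the genome's share in the strong list and close to it in the relaxed one, before their greater length is taken into account. The data hold no contrast, so these shares are described and not tested.

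**Figure D1:**
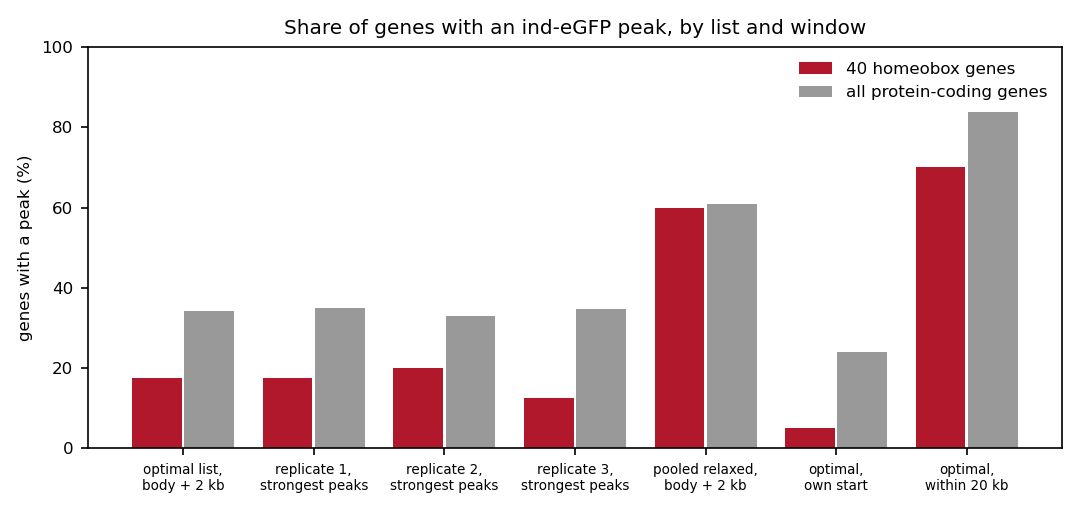
Percentage of genes with a peak (y axis) under several rules and lists (x axis), for the 40 homeobox genes (left bar of each pair) and all 13968 protein-coding genes (right bar). Under the optimal list the homeobox genes stood at 17.5% and the protein-coding genes at 34.2%, and in the pooled relaxed list the homeobox genes stood at 60% and the protein-coding genes at 61%.

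The bases around the summits show how many homeodomain cores each peak holds and how they are spaced. Given here are the 6 optimal peaks at these genes on X and 3R, as 201 bases centred on the summit in dm6, plus strand, 5′ to 3′, with every TAAT or ATTA in capitals. The first is the strongest peak of ct, in its intron, with 6 cores.
ct, chrX:7618288-7618488: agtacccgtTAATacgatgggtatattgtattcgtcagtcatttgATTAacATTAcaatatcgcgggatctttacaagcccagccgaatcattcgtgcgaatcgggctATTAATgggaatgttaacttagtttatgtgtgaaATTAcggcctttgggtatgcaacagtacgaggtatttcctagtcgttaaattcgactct
The next ct peak, farther along the gene, holds 0 cores.
ct, chrX:7651696-7651896: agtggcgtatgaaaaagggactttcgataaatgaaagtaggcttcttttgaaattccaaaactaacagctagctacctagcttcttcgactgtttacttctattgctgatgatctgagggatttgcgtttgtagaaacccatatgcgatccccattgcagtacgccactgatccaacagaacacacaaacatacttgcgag
The peak upstream of btn holds 4 cores.
btn, chr3R:22587387-22587587: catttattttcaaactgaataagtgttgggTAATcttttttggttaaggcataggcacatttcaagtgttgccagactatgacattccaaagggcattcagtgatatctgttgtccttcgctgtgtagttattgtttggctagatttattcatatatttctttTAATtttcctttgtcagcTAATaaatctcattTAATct
The intronic peak of lbl holds 6.
lbl, chr3R:21419997-21420197: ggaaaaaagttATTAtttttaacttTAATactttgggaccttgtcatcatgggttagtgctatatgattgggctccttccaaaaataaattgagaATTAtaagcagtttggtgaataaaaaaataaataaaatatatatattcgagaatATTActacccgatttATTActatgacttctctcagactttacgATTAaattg
The other 2 ct peaks hold 2 and 5 cores, and the window of the first also has a run of T.
ct, chrX:7617021-7617221: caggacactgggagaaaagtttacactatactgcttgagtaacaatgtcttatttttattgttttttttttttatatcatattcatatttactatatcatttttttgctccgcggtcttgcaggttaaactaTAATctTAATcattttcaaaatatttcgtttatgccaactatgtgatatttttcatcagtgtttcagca
ct, chrX:7666737-7666937: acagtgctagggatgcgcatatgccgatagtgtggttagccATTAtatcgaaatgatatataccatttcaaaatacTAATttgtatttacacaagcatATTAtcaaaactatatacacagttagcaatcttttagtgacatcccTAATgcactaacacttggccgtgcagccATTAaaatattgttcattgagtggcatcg

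None of the 6 windows, and none of the 10 peaks in all, held the palindrome TAATTA within 100 bp of the summit, which 18.1% of all optimal peaks did (1050 peaks, either strand). At least 1 TAAT core was present in 8 of the 10, against 93.6% of all optimal peaks, with the otp and the second ct windows lacking it. TAATGG, another homeodomain hexamer, was present in 3 of the 10, against 8.83% of the list. Among other hexamers, GAGAGA, of the Trl protein, was found in 2 of the 10, against 9.57%, and CAGGTA (Zelda) and ATCGAT (DRE and BEAF) in 0, against 4.29% and 10.5%. Runs of 6 A or T were present in 3 of the 10, against 48.5%. The windows had a median AT content of 64.2%, against 65.7% in the list, and ranged from 42.8% at otp to 72.6% at lbl. With 10 peaks, any of these shares moves by 10 percentage points per peak.

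The homeobox genes were not short of TAATTA itself. Their bodies and 2000 bp upstream held 493 copies, or 0.799 per kb, against 0.679 per kb over the same regions of all protein-coding genes. Each of the 40 had at least 1, as had 12186 of the 13968 protein-coding genes. The 40 are also longer, with a median of 9877 bp against 2164 bp, so having 1 copy says little about them. The density ran from 0.214 per kb at gsb to 1.81 per kb at slou. Of the 493 copies, 0 lay within 100 bp of an optimal summit, against 1.96% of the copies at protein-coding genes, counted per gene region. This 0 follows from the lack of TAATTA at the 10 peaks and is not a second result. Summits were also sparser at these genes, at 16.2 against 51.3 per Mb in the optimal list and 110 against 194 per Mb in the pooled one. Within 100 bp of a pooled relaxed summit there were 3 copies (0.609%), against 5.37%. Those 3 belonged to weak peaks, 2 copies at a peak in an intron of lbl (pooled rank 14159) and 1 in an intron of caup, an Iroquois gene (pooled rank 9512).

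The strongest of the 10 peaks lay in otp (FBgn0015524, orthopedia, a paired-type gene of hindgut and brain neurons). Its relative signal (the deposited signal of a peak over that of the list's median peak) was 6.06, 5.77 and 5.07 in replicates 1, 2 and 3, a mean of 5.63 ± 0.507 (SD, n = 3). In the optimal list it ranked 110 of 5809. The peak (2R, 20884422 to 20884762) lay 18820 bp downstream of the start of otp, in coding sequence, and 4664 bp from the nearest start, that of Cib2. Outside promoters, coding sequence held 11 optimal summits in the whole genome, and this was the highest ranked of them. Promoters here are the 500 bp on either side of any annotated start.

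The gene with the most peaks was ct (FBgn0004198, cut), a homeobox gene on X that sets the identity of external sensory organs and is also used in neurons, the wing margin and other tissues. It is the longest of the 40, at 70432 bp, and held 4 optimal and 11 pooled relaxed summits. The strongest (7618277 to 7618518, rank 1052) had a relative signal of 1.82, 2.22 and 1.83 in replicates 1, 2 and 3, a mean of 1.96 ± 0.230 (SD, n = 3). It lay in an intron 9960 bp from the start. The second (7651684 to 7651876, rank 1783) lay in an intron 43368 bp from the start and had 1.17, 1.73 and 1.48, a mean of 1.46 ± 0.279. In both, replicate 2 was the highest.

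The 2 weaker ct peaks had the smallest SDs of the 10 between replicates. The peak 8693 bp from the start (7617063 to 7617178, rank 3536) had 0.712, 0.790 and 0.829, a mean of 0.777 ± 0.0599 (SD, n = 3). The peak 58409 bp from the start (7666637 to 7667036, rank 4354) had 0.678, 0.699 and 0.672, a mean of 0.683 ± 0.0146. Its nearest annotated start was that of lncRNA:CR45667, 12784 bp away. All 4 ct peaks were found in all 3 replicates, that is, each had a summit within 200 bp among the strongest 5809 peaks of every replicate. None of the 4 lay at a ct promoter. The pooled list had a further peak 116 bp from a ct start, at rank 23450, among the weakest of that list.

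**Figure D2:**
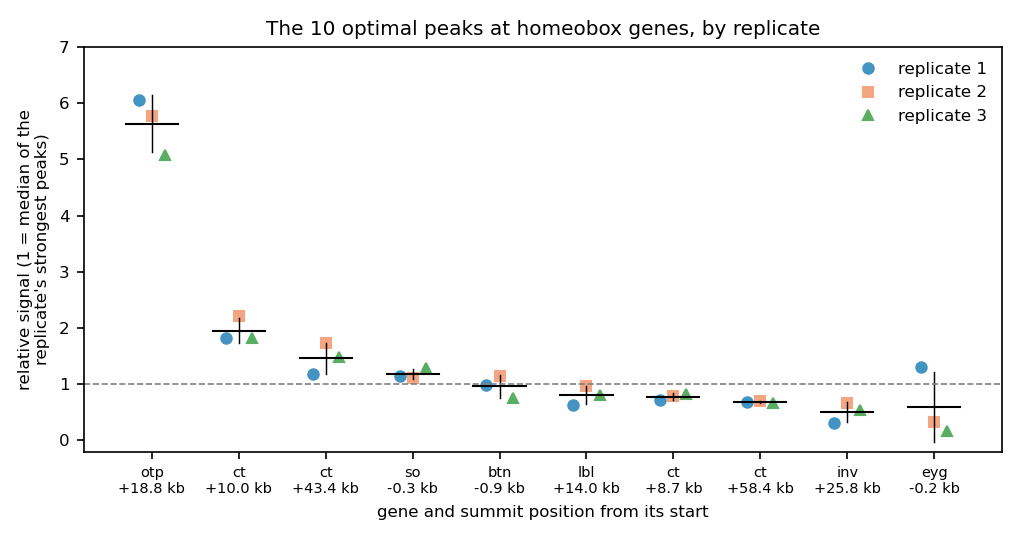
Relative signal (y axis, no unit; 1 is the median of the strongest 5809 peaks of that replicate) of the 10 optimal peaks at the homeobox genes (x axis, with each summit's distance from the gene's start), as 1 symbol per replicate, the mean as a line and the SD as a bar. The otp peak stood at 5.07 or more in all 3 replicates, and the eyg peak ran from 0.165 to 1.31.

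Of the eye genes, so and eyg had an optimal peak, and both lay at the gene's own promoter. The peak of so (FBgn0003460, sine oculis, a Six-type gene needed for the eye primordium) at 2R, 7419069 to 7419223, lay 263 bp upstream of the start, ranked 2250 and had 1.14, 1.11 and 1.28, a mean of 1.18 ± 0.0909 (SD, n = 3). The peak of eyg (FBgn0000625, eyegone, a Pax-type gene of eye growth) at 3L, 12468039 to 12468438, lay 218 bp upstream and ranked 5718, near the end of the list. Its values were 1.31 in replicate 1, 0.325 in replicate 2 and 0.165 in replicate 3, a mean of 0.600 ± 0.620, and its ranks in these replicates were 1918, 10637 and 24684. The eyg peak was thus carried by replicate 1, and it was found in that replicate alone.

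Of the other three genes with a peak, lbl and inv held theirs in introns and btn upstream. In btn (FBgn0014949, buttonless), needed for the dorsal median cells of the mesoderm, the peak (3R, 22587287 to 22587686, rank 3048) had 0.984, 1.15 and 0.755, a mean of 0.964 ± 0.200 (SD, n = 3). It lay 862 bp upstream of btn but 268 bp from the start of a neighbouring gene, Efa6, so it counts as an Efa6 promoter peak as well. In lbl (FBgn0008651, ladybird late, of muscle and heart identity), the peak (3R, 21419897 to 21420296, rank 3482, 14036 bp from the start) had 0.638, 0.968 and 0.809, a mean of 0.805 ± 0.165. The start nearest to this lbl peak was that of CheB93b, 10974 bp away. In inv (FBgn0001269, invected, the neighbour and paralogue of engrailed), the peak (2R, 11500031 to 11500430, rank 5629, 25766 bp from the start) had 0.318, 0.659 and 0.545, a mean of 0.508 ± 0.173. Its ranks in replicates 1, 2 and 3 were 13092, 4643 and 5840, so it was found in replicate 2 alone and stood just past the limit of 5809 in replicate 3.

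Apart from the otp peak, none of these ranked above 1052. The median relative signal of the 10 was 0.906, with 6 below the median of the optimal list and 2, at inv and eyg, among its weakest 10% (rank 5229 and beyond). In all 3 replicates 8 of the 10 (80%) were found, against 70.1% of all optimal peaks. Outside promoters lay 7 of the 10 (70%), against 51.9% of the list.

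**Figure D3:**
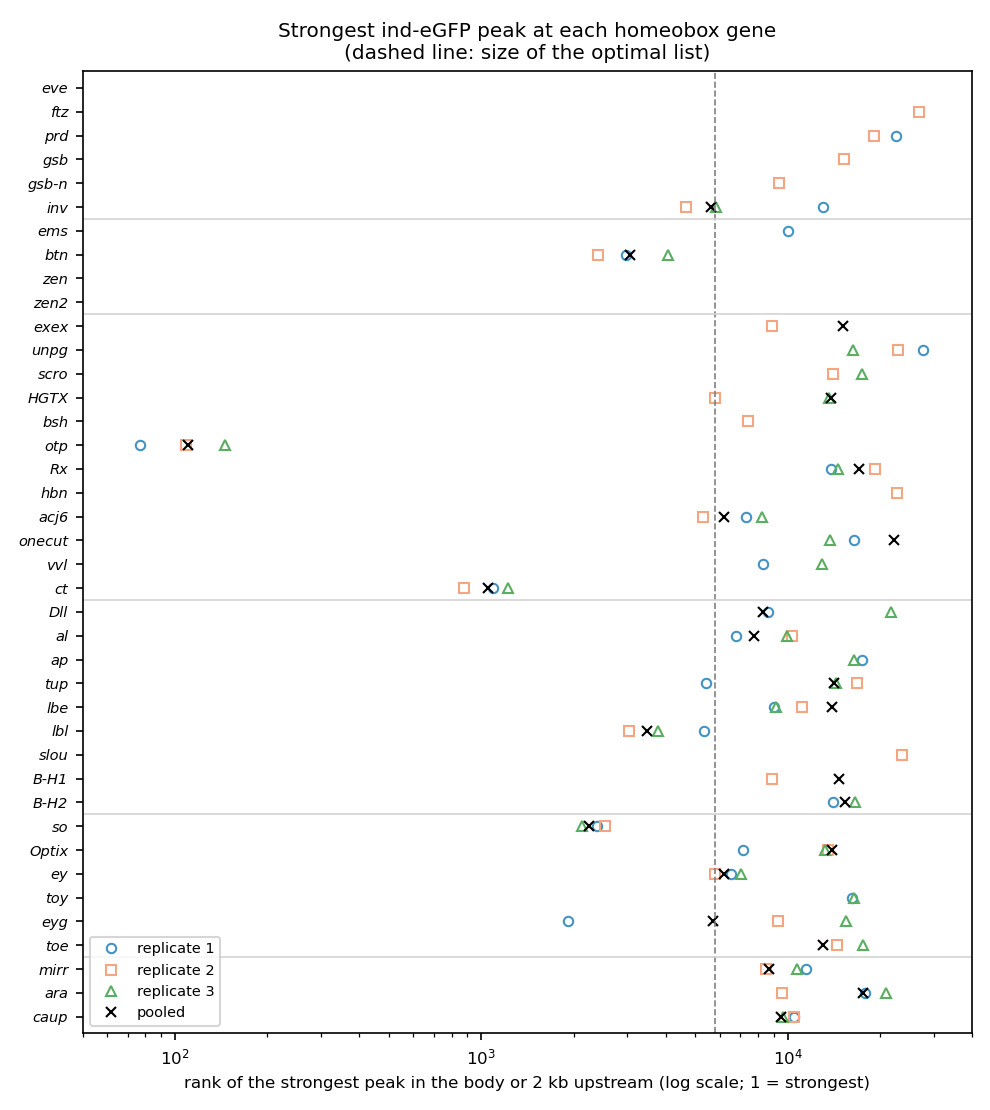
Rank of the strongest peak (x axis, log scale, 1 is the strongest peak of a list) in the body or 2000 bp upstream of each homeobox gene (rows, by role), with 1 symbol per replicate and a cross for the pooled list. The dashed line marks rank 5809: otp, ct, so, btn and lbl lie left of it in all 3 replicates, and eve, zen and zen2 have no symbol.

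The replicates gave the same picture, with some change in which genes held a peak. Among the strongest 5809 peaks of each replicate, 7, 8 and 5 of the 40 homeobox genes had a summit in replicates 1, 2 and 3 (17.5%, 20% and 12.5%), against 34.9%, 33% and 34.6% of protein-coding genes. The mean share was 16.7% ± 3.82 (SD, n = 3), and it lay 17.5 ± 4.52 percentage points below that of the protein-coding genes, below in each of the 3. The same 5 genes, otp, ct, so, btn and lbl, had a summit in all 3 replicates, and 10 had one in at least 1. The 5 held in 1 replicate each were eyg and tup in replicate 1 and inv, HGTX and acj6 in replicate 2. The share of protein-coding genes was not computed for these counts across replicates, so they only name the genes. By a related rule, an optimal peak found in all 3 replicates was present at 12.5% of the 40, against 27.1% of protein-coding genes. With all peaks of each replicate's relaxed list, 26, 30 and 27 of the 40 had a summit (65%, 75% and 67.5%), against 69%, 63.9% and 64.9% of protein-coding genes, so replicates 2 and 3 then stood above the genome's share and replicate 1 below it.

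Own promoters of these genes rarely held a peak. Within 500 bp of one of the gene's own starts, 2 of the 40 (5%; so and eyg) had an optimal summit, against 23.9% of protein-coding genes. Of the other protein-coding genes that start within 20 kb of these genes, 21 of 118 (17.8%) did. In the pooled relaxed list, 11 of the 40 (27.5%) had a summit at an own start, against 44.1%: HGTX, onecut, ct, Dll, al, tup, lbe, B-H2, so, ey and eyg. Counting any promoter peak in the body or 2000 bp upstream, 3 of the 40 (7.5%) had one, against 28.4% of protein-coding genes. Counting only peaks outside promoters, 4 of the 40 (10%; otp, ct, lbl and inv) had one, against 10.8%. As a share of genes, the gap to the genome thus lay mostly in promoter peaks, and away from promoters the 2 shares were close.

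Within classes of gene length, the share of the 40 homeobox genes with an optimal peak was below that of protein-coding genes in 4 of 5 classes. The homeobox genes are long, with a median of 9877 bp (477 bp at btn to 70432 bp at ct), against 2164 bp for protein-coding genes, and long genes have more room for a peak. Of the 40, 16 were among the longest 10% of protein-coding genes, and 5 of these had an optimal peak (31.2%), against 63.9% of all genes that long. Among the rest of the longest 25%, 1 of 11 did (9.09%), against 49.3%. Of genes of 2165 to 4999 bp and of 1179 to 2164 bp, 0 of 8 and 0 of 3 did, against 37.4% and 27.8%. Among the shortest, btn was 1 of 2 genes, against 16.7%. In the pooled relaxed list the homeobox genes were also below in 4 of the 5 classes. From the longest class down, 13 of 16 had a pooled peak (81.2%), against 94.8%, then 8 of 11 (72.7%), against 81%, 2 of 8 (25%), against 63.5%, and 0 of 3, against 53.8%. Of the 2 shortest genes 1 did, against 40.3%. Per length, the bodies and 2000 bp upstream of the homeobox genes held 16.2 optimal summits per Mb, against 51.3 per Mb at protein-coding genes. The same regions held 110 pooled relaxed summits per Mb, against 194 per Mb. For summits outside promoters the homeobox genes had 11.3 per Mb, against 23.9 per Mb at protein-coding genes, so per length the homeobox genes were sparser there too, unlike in the share of genes.

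**Figure D4:**
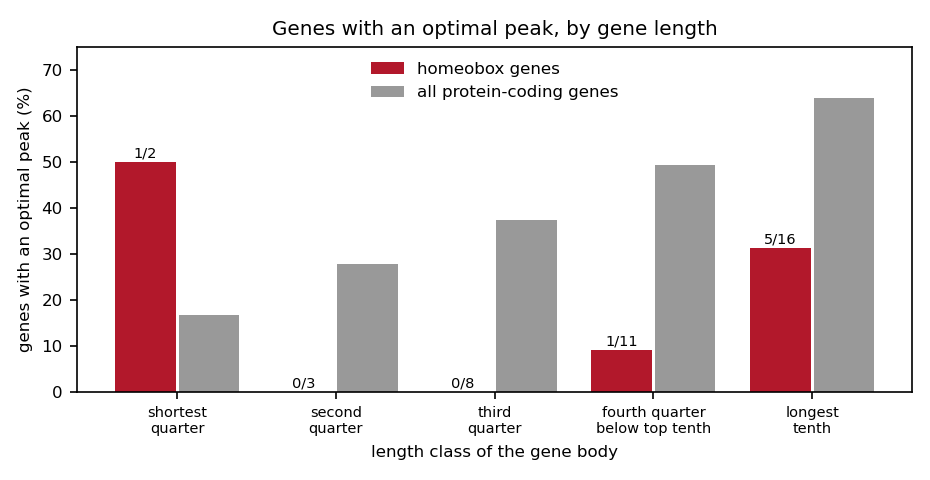
Percentage of genes with an optimal peak (y axis) by class of gene length (x axis), for the 40 homeobox genes (left of each pair, with the number of genes) and all protein-coding genes (right). In the longest class 31.2% of these homeobox genes and 63.9% of the protein-coding genes had a peak. Only the shortest class, with 2 of the 40, had the homeobox genes higher.

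The 6 role groups are small and were read against 34.2% of protein-coding genes with an optimal and 61% with a pooled relaxed peak. Of 12 neuronal identity and brain genes, 2 (otp and ct) had optimal peaks and 7 a pooled one, this last count near the genome's share. The pooled peaks of the 10 neuronal genes without an optimal one were weak. The strongest was in acj6, a POU-type gene of olfactory neurons, at pooled rank 6210, and HGTX (the fly Nkx6 gene of motor neurons), exex (the fly Hb9 gene of motor neurons), Rx and onecut had weaker ones. The brain and nerve genes unpg, scro, bsh, hbn and vvl had no pooled peak. scro was also the only one of the 40 with no pooled summit within 20 kb, and its nearest optimal summit was 1254462 bp away. It had 0 other protein-coding starts within 20 kb. Its body and 2000 bp upstream did hold 2 relaxed peaks in replicate 2 and 2 in replicate 3, at best ranks of 14107 and 17515.

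Segmentation and early patterning genes had few peaks in the gene and its upstream part, and optimal summits within 20 kb about as often as other genes. They are also the shortest groups, with median lengths of 2756.5 bp and 1166.5 bp, against 12707 bp for the neuronal genes. Within 20 kb, 5 of the 6 segmentation genes and all 4 head, mesoderm and dorsal genes had an optimal summit, against 83.8% of protein-coding genes. For inv this was its own intronic peak. The summits near eve and prd lay at the promoters of Pal1, ThrRS and Rab3-GAP, and zen and zen2 shared the same summits, nearest to bcd or Ama. Of the 6 segmentation genes, inv alone had optimal (1) or pooled (7) peaks. The pair-rule genes eve, ftz and prd and the paired-type genes gsb and gsb-n had none in either list, and eve had none in any of the 5 lists. Relaxed peaks of single replicates were present at ftz, gsb and gsb-n in replicate 2 alone, and at prd in replicates 1 and 2. Of the 4 head, mesoderm and dorsal genes, btn alone had optimal or pooled peaks. ems, a head gap gene, had 1 relaxed peak in replicate 1, and zen (a dorsal and amnioserosa gene) and its neighbour zen2 had none in any list. eve, zen and zen2 were the only 3 such genes of the 40.

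Of the 9 appendage, muscle and sensory organ genes, lbl alone had an optimal peak, against 34.2% of protein-coding genes, and 7 had pooled ones, against 61%. Within 20 kb, 3 of the 9 had an optimal summit, against 83.8%. In al (aristaless) and Dll (Distal-less), both limb genes, the best pooled peaks ranked 7766 and 8303, the first in an intron and the second 119 bp upstream of the start. tup (an islet-type LIM gene), lbe, B-H1 and B-H2 (the Bar genes of sense organs and photoreceptors) had pooled peaks, while ap and slou had none. The 6 eye genes had pooled peaks in 5 cases, all but toy. The best below the optimal limit was in ey, a Pax6 gene that starts eye formation, at pooled rank 6184 and 7 bp from a start of ey. The 3 Iroquois genes mirr, ara and caup, which pattern the eye and the dorsal body wall, had 0 optimal peaks and 1 or 2 pooled peaks each, the best of them at mirr (rank 8673).

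In total 33 homeobox genes had no optimal peak, 17 of these had a pooled relaxed one and 16 had none. Over all 40 there were 68 pooled peaks, of which 58 were outside the optimal list. They lay in introns in 42 cases (61.8%), in the 2000 bp upstream in 15, in 5′ UTRs in 5, and in coding sequence and 3′ UTRs in 3 each. Most were faint: 16 of the 68 (23.5%) had a −log10 q-value of at least 2, against 36.4% of the pooled list. Promoters held 16 of the 68 (23.5%), against 29.2% of the list. TAATTA was within 100 bp of 2 of the 68 summits (2.94%), against 14.7%. A relaxed peak in all 3 replicates was present at 18 of the 40 genes (45%), against 48.3% of protein-coding genes. In replicate 2 and in neither of the others, 8 of the 40 had one (20%; ftz, gsb, gsb-n, exex, bsh, hbn, slou and B-H1), against 7.16%. This last count was looked at after the replicate values were seen.

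The surroundings of the genes held more. Within 20 kb of the body, 28 of the 40 (70%) had an optimal summit, against 83.8% of protein-coding genes, and 39 (97.5%) had a pooled one, against 98.1%. The 12 without an optimal summit were gsb, scro, onecut, Dll, al, ap, lbe, slou, B-H1, ey, mirr and caup. These genes stand in emptier stretches: the median number of other protein-coding starts within 20 kb was 2 (0 to 13), against 8 for protein-coding genes. The windows, 1957 kb in all, held 63 summits, or 32.2 per Mb, against 42.2 per Mb over all arms. At promoters lay 24 of the 63 (38.1%), against 48.1% of the optimal list, and TAATTA stood at 9 (14.3%), against 18.1%.

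Most of the summits in these windows lay nearer to a gene outside the list. The 63 include the 10 peaks described above, and 53 lay outside the bodies and 2000 bp upstream. The nearest protein-coding start was that of a homeobox gene of the list for 21 of the 63 and of another gene for 42. These other genes include bcd, itself a homeobox gene, and no share to set beside this split was computed. Of the 24 promoter summits, 22 had another gene's start, coding or not, as the nearest. The other two lay at so and eyg. The strongest neighbours were of this kind, and the genes named in the next 3 sentences were chosen after their values were seen. The summit 19388 bp upstream of eve had a relative signal of 11.0 and lay at the Pal1 promoter. Near Optix, a summit 18467 bp downstream had 6.19 and lay nearest to CG12769. Near unpg, a summit 17808 bp upstream had 5.58, at the Rme-8 promoter.

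**Figure D5:**
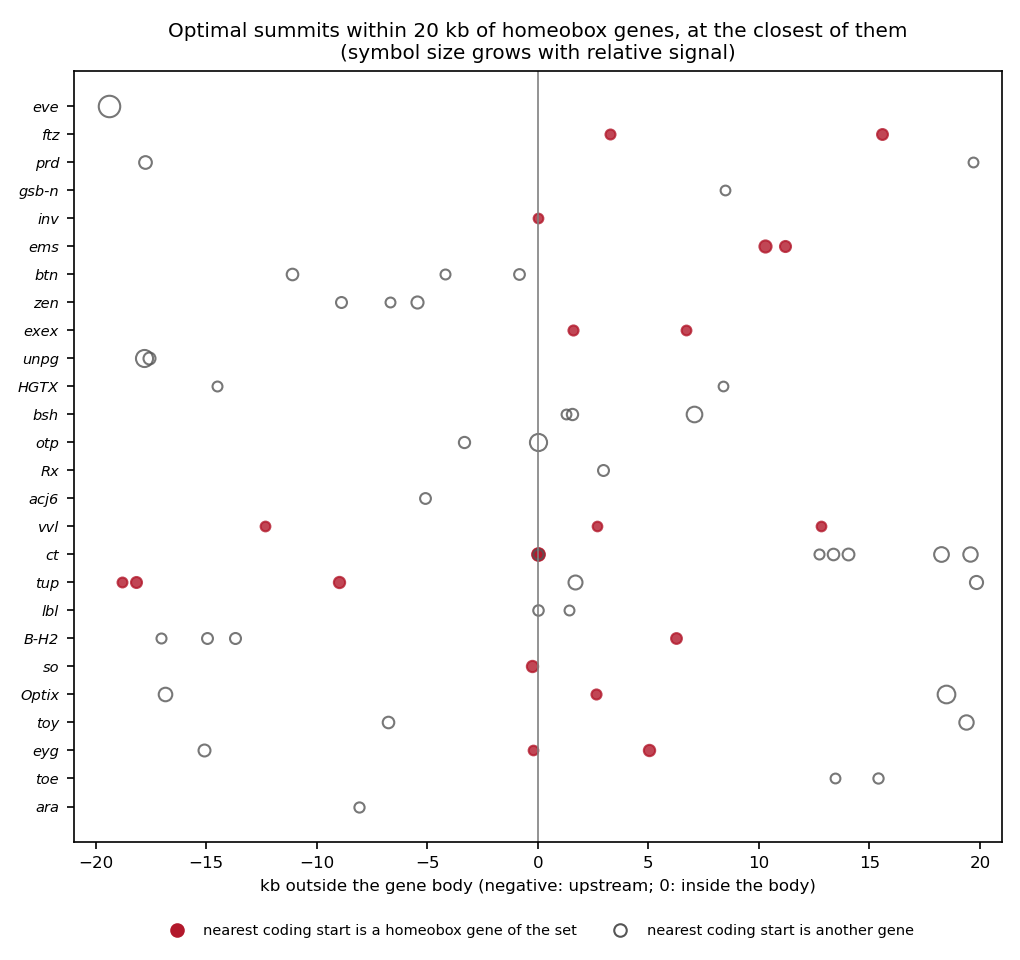
Position of the 63 optimal summits (x axis, kb from the gene body, negative upstream, 0 inside the body) beside the closest homeobox gene (rows), with symbol area growing with relative signal. Filled symbols (21) have a homeobox gene of the list as the nearest protein-coding start and open symbols (42) another gene, and the largest symbol, at eve, is open. The 4 summits inside ct overlap at 0.

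Summits nearest to a start of the 40 genes were mostly modest. ems, which had none in its body, had 2 downstream, 10294 bp and 11199 bp past its end, with relative signals of 1.64 and 1.09, both found in all 3 replicates. ftz had 2 downstream, with 1.02 and 0.658. vvl, a POU-type gene of trachea and neurons, had 3 around it, from 0.546 to 0.577, at ranks 5432 to 5752 and none found in all 3 replicates. eyg had a summit 5035 bp downstream with 1.23, found in all 3 replicates and with TAATTA within 100 bp, in contrast to its promoter peak. When each optimal peak was given to the nearest protein-coding start alone, 13 of the 40 (32.5%) received one, against 26.8% of protein-coding genes, which turns the order of the 2 shares. The other reaches gave gaps of unequal size: 4 of the 40 (10%) had a summit in the body, against 13.8%, and 6 (15%) with 500 bp upstream, against 29.5%. With 5000 bp upstream 7 (17.5%) did, against 42.9%, a wider gap, and within 10 kb 21 (52.5%), against 69.7%. Within 50 kb 38 (95%) did, against 94.7%. Of the stronger part of the optimal list(signal above the list's median), 3 of the 40 (7.5%) held a peak, against 22%. Of optimal peaks found in all 3 replicates, 5 (12.5%) did, against 27.1%.

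Other homeobox genes were set beside these by count alone. An optimal peak was present at 17.5% of the 40, against 11 of 47 further homeobox genes (23.4%), 6 of 11 Hox genes and cofactors (54.5%) and 34.2% of protein-coding genes. Among the strongest peaks of single replicates this order did not hold throughout. The 40 stood at 17.5%, 20% and 12.5% in replicates 1, 2 and 3, against 34%, 17% and 21.3% of the 47, so the 47 were below the 40 in replicate 2 and near the 34.9% of protein-coding genes in replicate 1. In the pooled list 60% of the 40 had a peak, against 78.7% of the 47 and 100% of the 11. These sets were not matched for gene length. Of all protein-coding genes of 14711 bp or more, 63.9% had an optimal and 94.8% a pooled peak. Most of the 11 are that long, among them hth (132008 bp), Antp (102976 bp) and Ubx (77804 bp). The shares of the 11 therefore cannot be read apart from their length. Of the 40, 3 lie on the small arm 4 (onecut, ey and toy) with 0 optimal peaks, on an arm where 17 of 80 protein-coding genes (21.2%) had one.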

How the data were processed

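Binding of GFP-tagged ind was measured in 3 replicates. The authors deposited, per the labels and the notes with the lists, a relaxed peak list per replicate, a relaxed list from the pooled replicates and an optimal list. Not given in the sources used here were aligner, peak caller and read depth, so no interval that needs depth is given. Each peak's signal value and its q-value on the −log10 scale are the authors' deposited values, used only to rank, filter or describe peaks within a list. The dm6 lists were joined to the dm6 sequence and the Ensembl BDGP6 genes (release 115), without transposable elements, and the dm3 lists were not used here.

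A summit stood for its peak. To be found in a replicate, an optimal peak needed a summit within 200 bp among the strongest 5809 of that list. Relative signals divide by the median of the optimal list, or of the strongest 5809 peaks of a replicate. The counting of peaks at genes was checked on simulated data. Tools were matplotlib 3.10.9, scipy 1.17.1, pandas 2.3.3 and numpy 2.4.6 under Python 3.11.15.

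The genes, role groups and motifs were chosen with earlier results of these data known. All 40 genes are accounted for, and those with an optimal peak are given with their replicate values. Other genes are named where such a peak is nearest to their start, and sequence is shown for the 6 strongest peaks outside arm 2R. Alternatives covered reach, thresholds, promoter width, motif window and each replicate left out.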

Additional observations from a re-analysis of the deposited data

How the results depend on the processing

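In 11 of 13 settings of reach, threshold and left-out replicates for the optimal list, the homeobox genes lay below the protein-coding genes. The exceptions there were the nearest-start rule and a reach of 50 kb (95% against 94.7%). The 13 include the main reaches of 2000 bp upstream and 20 kb. The rule of all 3 replicates and each left-out replicate gave the same 5 genes, so the 13 are not separate results. With all relaxed peaks the homeobox genes also lay above in replicates 2 and 3. The 7 genes became 4 with the body alone, 3 with the stronger part of the optimal list, 4 outside promoters, 13 by nearest start (27 peaks), 24 in the pooled list (68 peaks) and 4 where 50% of both intervals had to be shared in all 3 replicates. That stronger part held 4 of the 10 peaks, with a median relative signal of 1.72. Peaks found in all 3 replicates had a median of 1.09. The 28 genes within 20 kb became 19 with that stronger part, 21 within 10 kb, 38 within 50 kb and 39 in the pooled list. The last 3 stood against 69.7%, 94.7% and 98.1% of protein-coding genes, and for the 19 no such share was computed. The promoter share of 30% was 0% in the body alone and 0% with promoters of 200 bp. The mean of 6.67 genes per replicate became 27.7 with all relaxed peaks, 3.67 with a list of 50% the length and 11 at −log10 q-values from 2 up. For the 3.67, the 11 and the genes sharing 50% of both intervals, no share of protein-coding genes was computed. Those counts change with list length or strictness and are not read as results about these genes.

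Requiring optimal peaks to be found in both other replicates, with each replicate left out in turn, gave 5 genes, 8 peaks, a median relative signal of 1.09, a promoter share of 25% and no TAATTA each time. That was fixed in advance, because each of the 10 peaks was found either in all 3 replicates or in 1. The optimal list itself still rests on all 3. The 5 genes (12.5%) stood against 27.8% to 30.1% of protein-coding genes. This rule gave 24 to 26 genes within 20 kb, with no protein-coding share computed. The mean per replicate, with each replicate left out, was 6 to 7.5. No paired analysis was possible because the 3 samples form 1 group. Read depth is unknown, the lists hold no control signal, and 10 peaks make every share coarse. The replicates' relaxed lists hold background by construction, and the authors chose the optimal list for reproducible rank in these replicates, so finding its peaks in them is partly built in.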
